A study of Zea mays subsp. mexicana with 6 samples.

Results

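The transcriptomes of drought-stressed and cold-stressed teosinte seedlings were compared directly with each other, with 2 drought libraries set against 2 cold libraries out of 6 libraries in the series. Teosinte, *Zea mays* ssp. *mexicana*, is a wild relative of maize, and all seedlings were of the variety "8493". Seedlings aged 13 days were either moved to 4 °C for 12 h (cold) or given Hoagland nutrient solution with 20% PEG2000 for 3 h (drought), while control seedlings stayed at 25 °C without either treatment. Roots, stems and leaves of at least 3 seedlings were pooled for each library. Of the 184280 unigenes (Trinity genes of a *de novo* assembly, which have no genome coordinates), the 40144 whose FPKM averaged 1 or more in the 4 stressed libraries were compared. FPKM divides the fragments of a unigene by its length in kilobases and by the mapped fragments of the library. Since the drought treatment ran for 3 h and the cold treatment for 12 h, the kind of stress and its duration cannot be told apart. In pooled tissue, fewer cells of a type and less RNA per cell cannot be told apart either.

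Polyethylene glycol in the solution reduces the water potential around the root, and the plant loses water by osmosis. Loss of water raises abscisic acid (ABA), a hormone whose receptors act by inhibiting type 2C protein phosphatases (PP2Cs), and it induces hydrophilic protectants such as dehydrins and late embryogenesis abundant (LEA) proteins. Cold slows enzymes, stiffens membranes and acts in part through CBF/DREB transcription factors. Heat shock proteins (HSPs) are chaperones that bind unfolded proteins, and heat shock factors (HSFs) are the transcription factors that activate their genes.

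By limma on log2(FPKM + 1), 1388 unigenes were differentially expressed between drought and cold (DEGs, past a log2 fold change of 2 in size and with p under 0.005 after Benjamini-Hochberg adjustment), which is 3.46% of those tested. Of these, 712 (1.77% of the tested unigenes) were higher in drought and 676 (1.68%) were higher in cold. In every DEG both libraries of a stress lay above both libraries of the other stress, which held for 70.6% of all tested unigenes (41.6% with drought above and 29.0% with cold above). The larger differences lay on the drought side. A log2 difference of 4 or more was reached by 113 DEGs higher in drought and 32 higher in cold, and one of at least 5 by 44 and 5. The median FPKM in the higher group was 25.2 among DEGs higher in drought and 15.6 among those higher in cold. Fold changes on this scale understate the change of unigenes with low FPKM, and alleles or near-identical gene copies may stand as several unigenes among which the reads are split.

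The split between the directions depended on how the libraries were scaled. Over all unigenes tested the median difference was 0.15 on the log2 scale, and it moved by -0.20 under median-of-ratios scaling, where 517 DEGs were higher in drought and 911 higher in cold. The share of DEGs higher in drought was thus 51.3% with the deposited FPKM values, 36.2% with median-of-ratios scaling and 44.8% with quantile normalization. Of the 1388 DEGs, 1193 were called in the same direction under median-of-ratios scaling. Without drought-1 or without drought-2, 0 DEGs passed in limma, as the lowest adjusted p was then 0.0174 and 0.0145. At an unadjusted p under 0.05 with the same fold threshold, 1186 unigenes were higher in drought and 1116 in cold without drought-1, and 1306 and 1071 without drought-2. Without cold-1 the DEGs numbered 96 higher in drought and 416 higher in cold, and without cold-2 they numbered 94 and 391. Of 78 DEGs selected for naming, all 78 lost their call without either drought library, 49 without cold-1, 54 without cold-2, 13 without control-1 and 13 without control-2, and 0 changed sign. For a lone unigene, exact permutation of 2 against 2 libraries (two-sided) gives p = 0.333 at the lowest, and the p-values here therefore lean on limma's pooling of variance over unigenes. They measure the spread between these libraries, each a pool of seedlings.

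**Figure D1:**
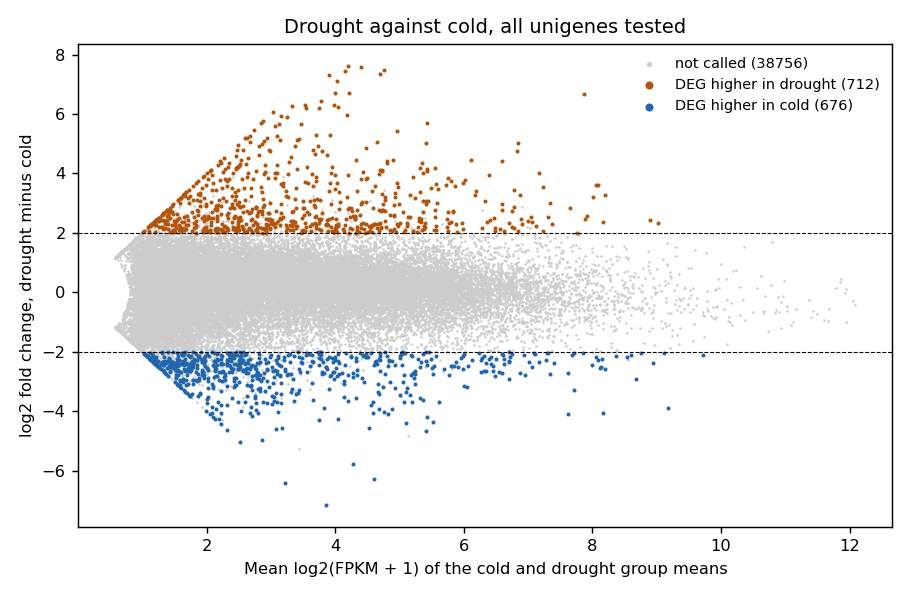
Log2 fold change between drought and cold (vertical axis, drought minus cold) against the mean log2(FPKM + 1) of both groups (horizontal axis) for the 40144 tested unigenes, 1 point each. The 712 DEGs higher in drought reach a log2 fold change of 7.62 and the 676 higher in cold reach -7.15, and points past the dashed fold thresholds in grey missed the threshold on p.

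The control libraries show on which side of the normal level these differences lay. Among the 676 DEGs higher in cold, both control libraries lay on the drought side of the midpoint between cold and drought in 613 (90.7%) and on the cold side in 39 (5.77%). In these unigenes drought was near the control level, and the median position of the control mean was 0.966 on a scale where 0 is the cold mean and 1 the drought mean. Among the 712 DEGs higher in drought the control was spread more widely, with 386 (54.2%) on the drought side, 268 (37.6%) on the cold side and a median position of 0.617.

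Calls against the control were made in the same fit. Of the DEGs higher in cold, 446 were called higher in cold than in the control only (1.87% of all tested unigenes were), 5 were called lower in drought than in the control only (0.0299%), and 224 were called in neither comparison. Of the DEGs higher in drought, 234 were called lower in cold than in the control only (0.957% of all tested unigenes), 127 were called higher in drought only (0.466%), 5 were called higher in both (0.154%) and 332 in neither. The 3 comparisons share libraries, so these counts describe the DEGs and are not independent of one another. Under median-of-ratios scaling the control lay on the drought side in 257 of 517 DEGs higher in drought and in 819 of 911 higher in cold.

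**Figure D2:**
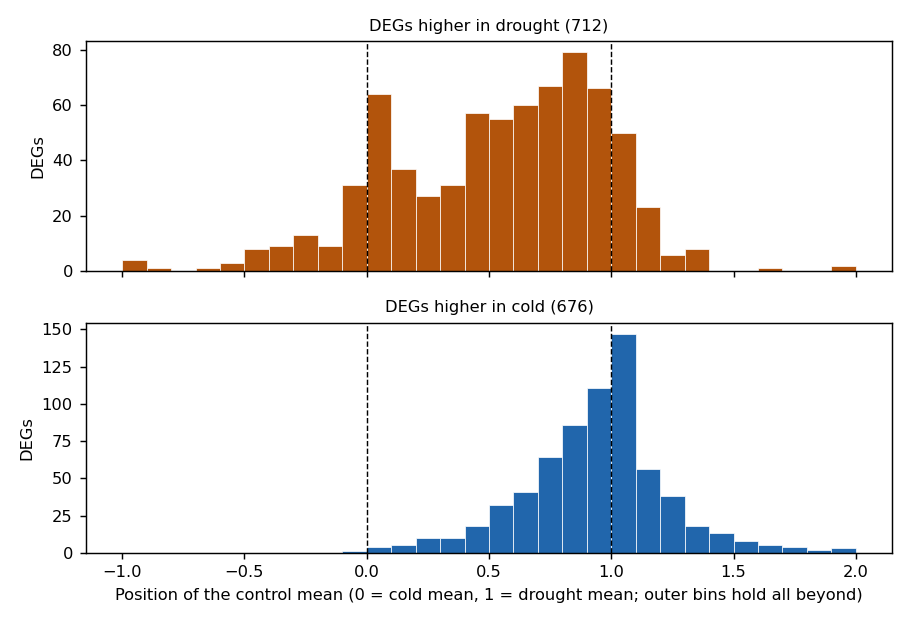
Position of the control mean between the cold mean (0) and the drought mean (1) on the log2(FPKM + 1) scale, as histograms of the 712 DEGs higher in drought (top) and the 676 higher in cold (bottom). The DEGs higher in cold gather near 1 (median 0.966), while those higher in drought spread from below 0 to past 1 (median 0.617), with values beyond the axis held in the outermost bars.

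Several unigenes on which the comparison turns were also targets of the authors' qRT-PCR. The primers are shown because they identify the transcripts of this assembly behind the names HSP82, small HSP, PP2C37 and ATHB-6. They are written 5′ to 3′ as the study lists them, in lower case throughout, since no base within them is singled out.
HSP82 c54089_g2 forward: tcgtccagctttagcccttc
HSP82 c54089_g2 reverse: ggctacgaggtgctgttcat
small HSP c56552_g1 forward: tcgtctggggtttcgtttga
small HSP c56552_g1 reverse: acgtggcataacatgtctcctt
PP2C37 c58084_g2 forward: ggacaaggagcgactctaagc
PP2C37 c58084_g2 reverse: cagagacacaggtagccacg
ATHB-6 c60754_g2 forward: acgtgtggtggattcatggt
ATHB-6 c60754_g2 reverse: tctgtttcccgtcgatccct

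Heat shock proteins were higher in drought than in cold, where several of them were near 0. Of 10 heat shock unigenes that the study names, 9 were DEGs higher in drought and 1 was higher in cold without reaching the fold threshold, beside 1.77% of all tested unigenes called higher in drought. The authors chose this list on these libraries, so its direction is not independent evidence. Its median log2 fold change was 4.18, against 0.15 over all unigenes tested. A list of chaperones drawn from the maize protein hits held 5 unigenes, of which 3 passed the filter and 2 were DEGs higher in drought (c46143_g1 and c56552_g1, described below). Both DEGs are also in the authors' list. Unigenes that are high in a single stress pass the filter more easily, so nothing further is read from this count. Differences here and below are log2 fold changes, drought minus cold, also where they stand in parentheses. The class II small HSP c56552_g1, of a family that holds unfolding proteins in solution, had an FPKM of 153.74 and 171.07 under drought, 0.71 and 0.41 under cold and 23.75 and 35.37 in control seedlings. The groups did not overlap, and the log2 fold change between drought and cold was 6.72 (SE, the standard error from limma, 0.22, and adjusted p = 0.000186). HSP82 (c54089_g2), a cytosolic chaperone of the HSP90 family, had 5.66 and 13.01 in control seedlings, 0.24 and 0.50 at 4 °C and 102.72 and 96.06 under PEG. Both drought libraries were far above the other 4, with a log2 fold change of 6.20 over cold (SE 0.35, adjusted p = 0.000503). A further HSP82 unigene (c56395_g2) differed by 6.32 and HSP81-1 (c56395_g1) by 3.07. These last unigenes share an assembly component, and reads of near-identical HSP90 copies can be divided among the 3.

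The other chaperones covered a range of sizes and levels. HSP26 (c46143_g1), a small chaperone, had 75.83 and 86.04 in drought, against 0.77 and 1.43 in cold and 10.69 and 12.08 in untreated seedlings, a log2 fold change of 5.30 (SE 0.19, adjusted p = 0.000227). The class I small HSP c60986_g3 differed by 5.25 and HSP70-1 (c59237_g1) by 4.33. HSP101 (c58173_g1), which pulls proteins out of aggregates, had 8.99 and 9.36 under cold, 164.26 and 165.50 under drought and 34.76 and 45.58 without stress. This is a log2 fold change of 4.03 (SE 0.15), and the control lay between the stresses. A second HSP101 unigene, c60810_g1, differed by 1.82 (adjusted p = 0.0011) and was below the fold threshold.

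The heat shock factors did not all follow the chaperones. HSF4 (c46749_g1) had 18.08 and 14.31 under drought, 0.38 and 0.13 under cold and 9.03 and 8.83 in control seedlings, a log2 fold change of 3.77 (SE 0.20, adjusted p = 0.000452). HSF7 (c54684_g2) was lower throughout and differed by 2.59 (adjusted p = 0.00178), a call lost without either control library. HSF30 (c59856_g7) was the exception in the list. Its FPKM was 1.85 and 1.82 in control seedlings, 30.58 and 31.36 at 4 °C and 16.62 and 14.80 under PEG, so that both stresses lay above the control and cold above drought. The difference of -0.94 (SE 0.13, adjusted p = 0.00485) was under the fold threshold.

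Chaperones of the endoplasmic reticulum, where secreted proteins fold, were also lower in cold. Of 12 tested unigenes among 15 listed from the maize protein hits, 9 were higher in drought with an adjusted p under 0.05 whatever the fold, 0 were higher in cold and 1 was a DEG. By that rule, which was added after seeing the data, 38.4% of all tested unigenes differed, with 23.1% higher in drought and 15.4% higher in cold. The same rule is used for the lists below. The DEG was protein disulfide isomerase 8 (c59953_g1), an enzyme that forms disulfide bonds in folding proteins. It had 76.99 and 88.21 in drought, against 10.59 and 9.36 in cold and 67.19 and 85.06 in untreated seedlings, a log2 fold change of 2.93 (SE 0.15, adjusted p = 0.000452). The drought libraries were at the control level and the cold libraries below it. Calreticulin 2 (c58156_g2), a calcium-binding chaperone, showed a like order with 71.32 and 90.91 under cold, 252.19 and 358.21 under drought and 381.35 and 380.22 without stress, and its difference of 1.89 was below the fold threshold. Derlin-1.2 (c59207_g3), of a family that exports misfolded proteins for degradation, differed by 1.92.

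Protectant proteins of dry cells included the DEG with the largest difference. Dehydrin DHN1 (c43682_g1) had an FPKM of 2588.06 and 2133.58 under drought, 28.17 and 17.15 under cold and 11.43 and 17.62 in control seedlings. Cold and control overlapped and both drought libraries stood far above them, with a log2 fold change of 6.67 (SE 0.29, adjusted p = 0.000325). A group 3 LEA protein (c52001_g1) had 1 and 1.98 in control seedlings, 0 and 0.71 at 4 °C and 308.41 and 211.78 under PEG. Its log2 fold change of 7.62 (SE 0.35, adjusted p = 0.000365) was the largest increase among all DEGs. A unigene of the same component and name, c52001_g2, differed by 6.27, and reads may be divided between them.

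The list of dehydrin and LEA proteins was mixed. Of 13 unigenes in the list 7 passed the filter, where 3 were DEGs higher in drought, 1 was a DEG higher in cold and 3 stayed above an adjusted p of 0.05. A unigene that is high in a single stress passes such a filter more easily, so the counts describe the listed members only. The listed unigene higher in cold was low temperature-induced protein 15 (c54255_g2). Its name is that of neither a dehydrin nor a LEA protein, so it says nothing of these families. It had 110.72 and 129.24 in drought, against 751.40 and 680.91 in cold and 166.31 and 127.86 in untreated seedlings. Both cold libraries stood above the other 4, and the log2 fold change was -2.57 (SE 0.16, adjusted p = 0.000631). The 3 unigenes of the embryo protein EMB564 had log2 fold changes from -0.35 to 1.14, with FPKM values at or below 10.93 in every library.

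**Figure D3:**
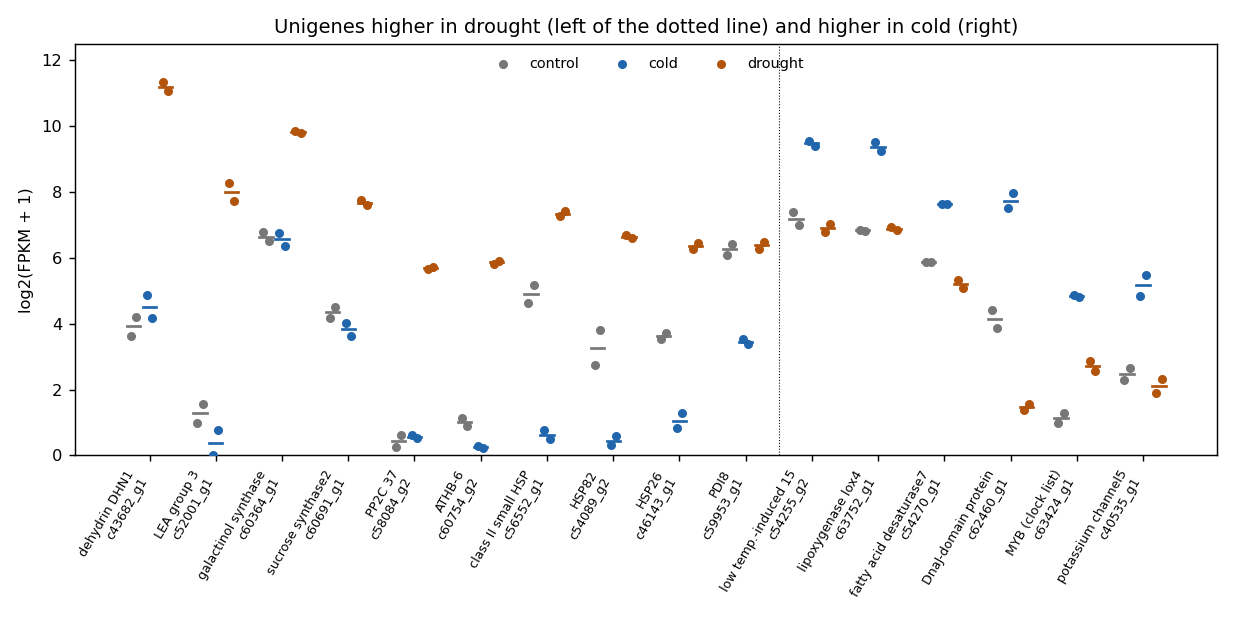
FPKM of 16 named unigenes on a log2(FPKM + 1) scale, with 1 point per library and a bar at the group mean (grey control, blue cold, orange drought). Left of the dotted line the drought libraries lie far above the cold ones, as in DHN1 with 2588.06 and 2133.58 against 28.17 and 17.15, and right of it the cold libraries lie above, as in low temperature-induced protein 15.

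ABA signalling unigenes were mostly higher in drought, with differences between copies. Of 12 unigenes that the study names for ABA responses and PP2Cs, again chosen by the authors on these libraries, 5 were DEGs higher in drought and 0 higher in cold, and 9 and 1 differed at an adjusted p under 0.05. Among all tested unigenes, 1.77% and 1.68% were such DEGs, and 23.1% and 15.4% differed at that p in these directions. PP2C37 (c58084_g2), a phosphatase that holds ABA signalling back, had 0.55 and 0.43 under cold, 49.72 and 52.16 under drought and 0.19 and 0.55 without stress. Control and cold overlapped and drought stood apart, with a log2 fold change of 5.12 (SE 0.21, adjusted p = 0.000288). The PP2C unigene c60116_g4 had 115.83 and 120.63 under drought, 2.49 and 3.89 under cold and 9 and 10.31 in control seedlings, a difference of 4.85. A further PP2C unigene, c50507_g1, differed by 2.38. The EID1-like F-box protein c57232_g2 belongs to the proteins that select targets for degradation, and it had 0.08 and 0.32 in control seedlings, 0.11 and 0.47 at 4 °C and 39.94 and 36.11 under PEG, a log2 fold change of 4.93.

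The other PP2C unigenes had smaller differences. PP2C 50 (c57868_g1) had 213.94 and 203.22 under drought, 74 and 79.67 under cold and 20.27 and 18.09 in control seedlings, and it was higher in drought by 1.43 (adjusted p = 0.000931) without reaching the fold threshold. In PP2C 3, c52482_g3 had 131.24 and 105.71 under drought and 100.07 and 94.24 under cold, with a log2 fold change of 0.28 (SE 0.14, adjusted p = 0.161), and c52482_g6 differed by 0.57 (adjusted p = 0.0536). PP2C 34 (c62830_g2) went the other way, with 172.34 and 203.06 at 4 °C against 95.50 and 110.94 under PEG (-0.86, adjusted p = 0.00593). NCED1 (c63716_g5), which catalyses the committed step of ABA synthesis, had 48.92 and 50.94 in drought, against 26.52 and 29.88 in cold and 1.58 and 1.07 in untreated seedlings. It was above the control in both stresses and 0.80 higher in drought (SE 0.16, adjusted p = 0.0125). The homeobox-leucine zipper unigene ATHB-6 (c60754_g2), named after an *Arabidopsis* transcription factor of the ABA response, had 0.22 and 0.17 under cold, 55.32 and 59.34 under drought and 1.21 and 0.86 without stress. Its log2 fold change was 5.61 (SE 0.18, adjusted p = 0.000186), and it was the single DEG higher in drought among 10 tested unigenes listed as other transcription factors.

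Enzymes of sugar metabolism were found at both ends of the comparison. Galactinol synthase (c60364_g1), which catalyses the first step to the protective raffinose sugars, had 924.94 and 890.92 under drought, 107.35 and 82.17 under cold and 110.18 and 89.63 in control seedlings. The control and cold ranges overlapped, and drought was higher than cold by 3.26 on the log2 scale (SE 0.17, adjusted p = 0.000419). Stachyose synthase (c55229_g2), which acts further down this pathway, had 54.31 and 55.79 in control seedlings, 103.15 and 111.45 at 4 °C and 518.74 and 363.49 under PEG. Its difference of 2.01 (adjusted p = 0.00144) just passed the fold threshold, and it was not called under median-of-ratios scaling or without either control library. Sucrose synthases, which split sucrose, went in both directions. The unigene c60691_g1 had 214.05 and 194.10 in drought, against 15.36 and 11.40 in cold and 17.14 and 21.89 in untreated seedlings, a difference of 3.85 (SE 0.18, adjusted p = 0.000394). The more abundant c60955_g1 had 499.41 and 565.35 at 4 °C against 317.68 and 386.22 under PEG (-0.60, adjusted p = 0.0199). Sucrose-phosphate synthase (c64511_g3), which makes sucrose, was lower in drought, with 197.97 and 188.10 under cold, 33.54 and 25.93 under drought and 173.36 and 135.68 without stress, a difference of -2.67 (SE 0.17, adjusted p = 0.000675). Here the control lay with the cold, which was so in few DEGs higher in cold. Among the 25 tested unigenes of the starch and sucrose list, c60691_g1 and c64511_g3 were the only DEGs, and the median log2 fold change was -0.19. At an adjusted p under 0.05, 3 were higher in drought and 5 in cold, beside 23.1% and 15.4% of all tested unigenes. Under median-of-ratios scaling these counts of the list were 2 and 10.

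Fermentation enzymes were lower in cold. Of 11 tested glycolysis and fermentation unigenes, 3 were DEGs, all higher in drought, and 1 remained a DEG under median-of-ratios scaling. Alcohol dehydrogenase 1 (c52590_g5), which makes ethanol when oxygen is short, had 24.64 and 32.96 under drought, 0.29 and 1.65 under cold and 18.96 and 29.58 in control seedlings, a difference of 4.00 (SE 0.39, adjusted p = 0.00192) that was no longer called with a pseudocount of 0.1 or without either control library. Alcohol dehydrogenase 2 (c52590_g3) lies in the same assembly component and had 1016.47 and 1641.48 in control seedlings, 295.02 and 179.30 at 4 °C and 1033.91 and 1288.27 under PEG. Its difference of 2.32 (adjusted p = 0.00476) was close to the threshold on p, and its call was lost in 13 of the alternatives, among them median-of-ratios scaling, a pseudocount of 0.1 and leaving out any of the 6 libraries. Pyruvate decarboxylase 1 (c57741_g1), the enzyme before them, differed by 2.18 and lost its call under median-of-ratios scaling. In all 3 the drought range overlapped the control and cold lay below. NADP malic enzyme 4 (c50227_g1), which releases CO2 from malate, was near 0 outside the drought, with 68.05 and 76.57 in drought, against 0.54 and 0 in cold and 0.24 and 0 in untreated seedlings (log2 fold change 5.88, adjusted p = 0.000365).

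Aquaporins, the water channels of cell membranes, were split by member. Of 32 tested aquaporin unigenes among 40 in the list, 15 were higher in drought and 3 in cold at an adjusted p under 0.05. This stands beside 23.1% and 15.4% of all tested unigenes. In each direction 1 was a DEG. PIP2-3 (c59251_g1) had 91.13 and 109.27 under cold, 514.53 and 593.17 under drought and 210.60 and 215.13 without stress, so that the control lay between the stresses and the difference was 2.46 (SE 0.13, adjusted p = 0.00046). The PIP1-5 unigenes c35748_g1 and c56750_g3 differed by 1.97 and 1.83, just under the fold threshold. PIP2-5 (c14812_g1) was the DEG on the cold side, with 14.73 and 19.08 under drought, 109.65 and 74.17 under cold and 18.64 and 18.69 in control seedlings, a difference of -2.36 (SE 0.22, adjusted p = 0.00159). It lost its call when a control library was left out or only the 4 stressed libraries were fitted. TIP1-1 (c63952_g3), a channel of the vacuole and the most abundant of the uncalled members, had 1987.17 and 1791.42 in drought against 1481.93 and 1146.88 in cold (0.53).

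Antioxidant enzymes were mostly higher in drought, with no DEG among them. Of 9 tested unigenes, 0 were DEGs and 7 were higher in drought at an adjusted p under 0.05, as were 23.1% of all tested unigenes. The median log2 fold change of the 9 was 1.24. Thioredoxin h (c57097_g3), which reduces disulfides, had 233.74 and 302.86 in control seedlings, 147.56 and 172.30 at 4 °C and 378.67 and 435.39 under PEG (1.34). In 30 tested glutathione transferases, which attach glutathione to toxic compounds, 12 were higher in drought and 3 in cold at that threshold (23.1% and 15.4% of all tested unigenes). Glutathione transferase 19 (c64499_g2) was the only DEG, with 66.81 and 80.33 under drought and 9.86 and 12.63 under cold (2.61, adjusted p = 0.000986), and glutathione transferase 30 (c57274_g2) was the lowest, with 86.34 and 113.71 at 4 °C against 29.10 and 25.61 under PEG (-1.82).

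Some lipoxygenases were higher in cold, and the most abundant was not. They oxidise polyunsaturated fatty acids on the way to jasmonate and other oxylipins. Of 26 tested unigenes of the jasmonate list, 11 were higher in cold and 3 in drought at an adjusted p under 0.05. This stands beside 15.4% and 23.1% of all tested unigenes. The list held 2 DEGs, both higher in cold. Lipoxygenase lox4 (c63752_g1) had 121.34 and 113.57 in drought, against 731.64 and 608.11 in cold and 114.52 and 112.88 in untreated seedlings, a difference of -2.50 (SE 0.12, adjusted p = 0.000394). Lipoxygenase 7 (c40245_g1) had 20.68 and 15.02 under cold, 2 and 1.46 under drought and 0.73 and 1.12 without stress (-2.78, adjusted p = 0.00146). Drought was close to the control in both. Lipoxygenase lox11 (c59398_g1), the most abundant, had 2404.74 and 2208.83 under drought and 1639.02 and 1891.74 under cold (0.39, adjusted p = 0.0645). The 12-oxo-phytodienoic acid reductases, which act later in the pathway, divided: c62969_g1 differed by -1.62 and c55902_g1 by 1.15. Fatty acid desaturase 7 (c54270_g1), a plastid enzyme that makes trienoic fatty acids, had 39.37 and 33.25 under drought, 198.28 and 197.12 under cold and 58.08 and 57.79 in control seedlings. The cold libraries were above and the drought libraries below the control, with a difference of -2.42 (SE 0.11, adjusted p = 0.000369).

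Growth regulators and a potassium channel were further maize-annotated DEGs higher in cold. Growth-regulating factor 5 (c59640_g1), of a family of transcription factors active in growing organs, had 0.92 and 0.58 in control seedlings, 31.45 and 22.53 at 4 °C and 1.69 and 0.65 under PEG, a difference of -3.71 (SE 0.31, adjusted p = 0.00127). Growth-regulating factor 6 (c56137_g1) differed by -2.45 and lost its call without either control library. Potassium channel 5 was represented by c40535_g2 (-3.43, not called without either control library) and c40535_g1 (-3.06). The latter had 2.73 and 4 in drought, against 27.95 and 43.89 in cold and 3.90 and 5.27 in untreated seedlings, and reads of the pair may be divided.

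The 5 unigenes listed as clock-related were all higher in cold. They comprise the pseudo-response regulators PRR1 and PRR95 of the circadian clock, a pair annotated as ARR1-like in maize and as phytoclock 1 in *Arabidopsis*, and a MYB protein whose *Arabidopsis* hits are the clock proteins CCA1 and late elongated hypocotyl. They were taken from the authors' list of unigenes that differed between cold and control in these libraries, so their direction is not independent evidence. The median log2 fold change was -1.73, and 2 of the 5 were DEGs. PRR95 (c63478_g1) had 70.90 and 89.13 under cold, 23.39 and 25.61 under drought and 15.97 and 18.08 without stress (-1.66, adjusted p = 0.00152). The ARR1-like c44298_g2 had 0 and 0.08 under drought, 9.69 and 10.77 under cold and 0.08 and 0 in control seedlings (-3.43, adjusted p = 0.000865). The MYB unigene c63424_g1 differed by -2.12. Samples of a 3 h and a 12 h treatment can come from different times of day, and stress, duration and time of sampling cannot be told apart here.

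Gibberellin unigenes went in both directions, also within a step of the pathway. The authors chose the 7 listed on these libraries, so their direction is not independent evidence. Gibberellin 2-beta-dioxygenases inactivate the hormone, and c57017_g2 and c57017_g1 were higher in cold. The unigene c57017_g2 had 0.64 and 0.56 in control seedlings, 10.84 and 7.64 at 4 °C and 1.37 and 1.59 under PEG (-2.03), and c57017_g1 differed by -2.11 (adjusted p = 0.00491). A further 2-beta-dioxygenase, c33506_g1, did not separate the stresses, with 20.84 and 21.21 in drought against 25.58 and 16.67 in cold. Gibberellin 20 oxidases, which act in synthesis, were split. Here c63822_g4 was higher in cold (-1.27, adjusted p = 0.0122) and c56760_g2 higher in drought (0.87, adjusted p = 0.0362), while c49254_g1 did not differ (-0.71, adjusted p = 0.367). The receptor precursor GID1L2 (c47232_g1) had 9.01 and 15.06 in drought, against 1.81 and 1.62 in cold and 15.02 and 16.54 in untreated seedlings, a difference of 2.22 (adjusted p = 0.00259). The 3 calls were lost when only the 4 stressed libraries were fitted and when either control library was left out.

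Transcription factor unigenes that the study names went in both directions. The authors chose these and the kinases below on these libraries, so their direction is not independent evidence. An adjusted p under 0.05 was reached by 38.4% of all tested unigenes, beside which the following counts stand. Of 9 tested DREB and ERF unigenes 0 were DEGs, 3 were higher in cold and 1 in drought at an adjusted p under 0.05. The CBF-like unigene c57018_g4 had 77.85 and 129.28 under cold, 30.10 and 30.40 under drought and 8.23 and 2.71 without stress (-1.70, adjusted p = 0.0324), while the DREB 1D unigene c49699_g2 had 19.35 and 11.16 under drought and 5.35 and 5.10 under cold (1.34, adjusted p = 0.0306). Of 5 WRKY unigenes 3 were higher in cold and 0 in drought, among them c38115_g1 with 114.13 and 103.21 at 4 °C against 33.76 and 30.67 under PEG (-1.72). Of 4 NAC unigenes, c47289_g2 was a DEG, with 31.77 and 29.87 under drought, 123.68 and 189.18 under cold and 18.81 and 19.80 in control seedlings (-2.28, adjusted p = 0.00151, not called without either control library). On the other side c52045_g1, a NAC unigene of the ABA response, had 23.33 and 12.90 in drought against 2.08 and 3.89 in cold, and its 2.24 missed the threshold on p (adjusted p = 0.00646). Among 5 kinases, MKK4 (c62016_g1) was higher in cold (-1.29) and CBL-interacting kinase 11 (c51372_g1) had 141.67 and 101.23 under drought and 71.72 and 76.83 under cold (0.68, adjusted p = 0.0724). A further unigene of that name, c49176_g1, had 39.22 and 30.79 in drought against 20.79 and 21.08 in cold (0.71, adjusted p = 0.0188).

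Photosynthesis unigenes were lower in drought than in cold by moderate amounts. Of 17 tested nuclear-encoded ones, 0 were DEGs, while 11 were higher in cold and 1 in drought at an adjusted p under 0.05, with a median log2 fold change of -0.63. Beside this and the next counts, 15.4% of all tested unigenes were higher in cold and 23.1% in drought at that p. The Rubisco small chain (c59441_g6), part of the enzyme that fixes CO2, had 3525.93 and 3286.53 in control seedlings, 4064.37 and 4492.17 at 4 °C and 2215.45 and 2288.68 under PEG (-0.92, SE 0.13). Phosphoenolpyruvate carboxylase 1 (c59465_g1), the first enzyme of C4 carbon fixation, differed by -1.31 and the light-harvesting protein CP26 (c49564_g1) by -1.19. Of 20 tested plastid-encoded unigenes, 5 were higher in cold and 1 in drought. The listed leaf markers are mostly members of this group. Of 13 tested, 9 were higher in cold and 1 in drought, and the 19 listed summed to FPKM 16318.9 and 19908.3 in the cold, 10252 and 10490.8 in the drought and 16645.5 and 15878.8 in the control. The 11 root markers summed to 90.25 and 101.56 at 4 °C against 63.32 and 61.54 under PEG, with 2 of 7 tested members higher in cold, and the 6 stem and meristem markers to 49.79 and 56.99 in drought against 43.82 and 23.64 in cold. No leaf, root or stem marker was at 0 in every library. Whether the share of leaf in the pooled tissue had a part in the photosynthesis values was not tested.

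Cell wall unigenes leaned to cold. Of 40 tested cellulose synthase, expansin and tubulin unigenes, 16 were higher in cold and 4 in drought at an adjusted p under 0.05. Beside this and the counts below, 15.4% of all tested unigenes were higher in cold and 23.1% in drought at that p. Cellulose synthase 8 (c52973_g3), a subunit of the enzyme that spins cellulose, had 28.29 and 28.78 under drought and 81 and 80.58 under cold (-1.47, adjusted p = 0.00133). The only DEG of the list was higher in drought. This was tubulin alpha-6 (c60486_g1), a microtubule subunit, with 16.11 and 20.60 at 4 °C against 83.08 and 95.19 under PEG (2.23). It lost its call under median-of-ratios scaling. In 16 tested translation unigenes 2 were higher in cold and 0 in drought, in 5 of cell cycle and replication 0 were higher in cold and 1 in drought, and in 12 of phosphate and nitrate transport 3 were higher in cold and 1 in drought, none of them a DEG. No median of the lists named here changed sign under median-of-ratios scaling. The counts at an adjusted p under 0.05 did shift in several lists. Aquaporins then had 11 higher in drought and 4 in cold, and DREB and ERF unigenes 0 and 3. The shares of all tested unigenes set beside the lists are those with the deposited FPKM values.

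**Figure D4:**
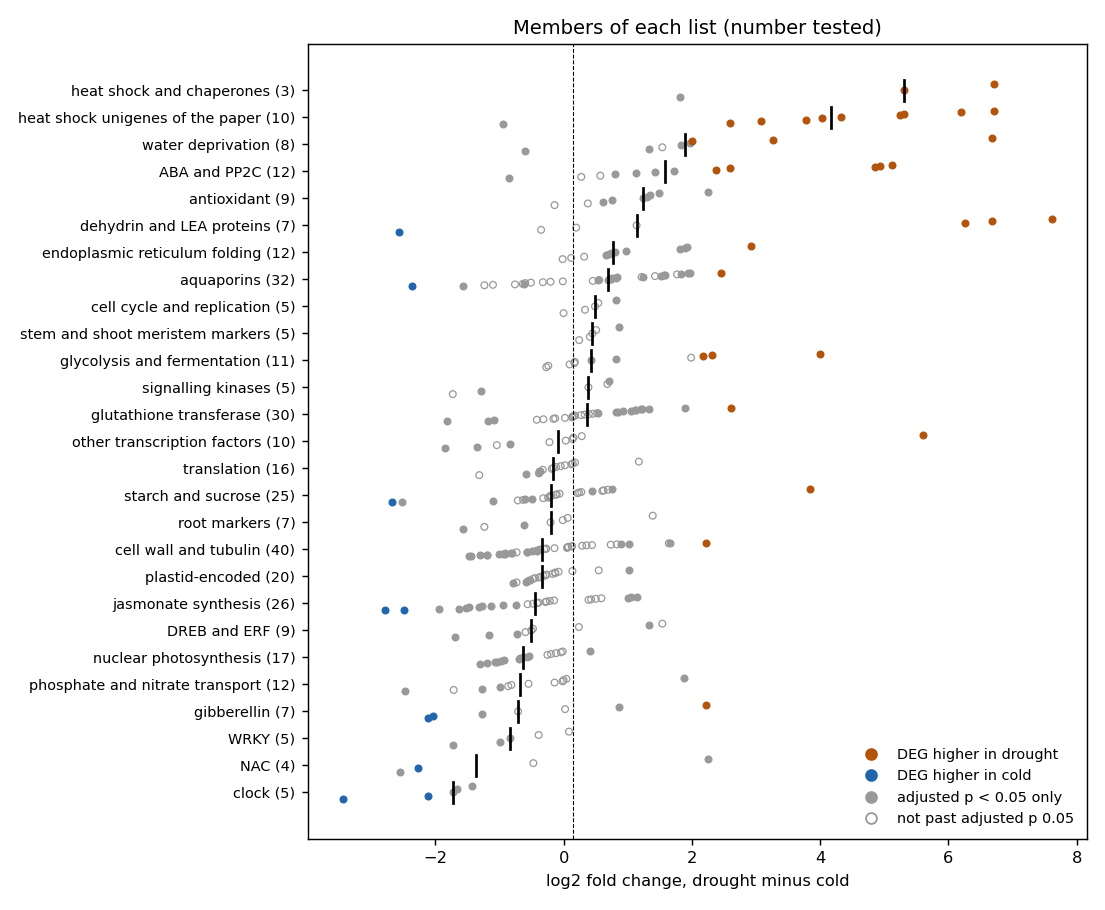
Log2 fold change between drought and cold of every tested member of each list (horizontal axis), with 1 point per unigene, a black bar at the list's median and a dashed line at the median of all tested unigenes (0.15). Orange and blue points are DEGs, grey points passed an adjusted p of 0.05 only and open points did not. The heat shock lists, which share members, lie furthest to the right (medians 5.30 over 3 tested unigenes and 4.18 over 10) and the clock list furthest to the left (-1.73).

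Many of the largest differences were in unigenes without a name in the annotation used here. On the drought side, c43173_g1 had 320.24 and 401.12 in drought, 0.76 and 1.33 in cold and 6.99 and 6.19 in untreated seedlings (7.47, adjusted p = 0.000159). The unigene c41217_g1 had 297.42 and 361.90 in drought, 1.32 and 0.76 in cold and 0.72 and 2.61 in untreated seedlings (7.35). In c48582_g1 the difference was as large (6.71) but lay in the cold, with 0.16 and 1.87 there against 178.23 and 201.95 in drought and 180.90 and 161.35 in untreated seedlings. On the cold side, c58073_g5 had 167.94 and 175.15 in cold, 0.20 and 0.23 in drought and 0.67 and 0.20 in untreated seedlings, the largest difference among DEGs higher in cold (-7.15, SE 0.20, adjusted p = 0.000159). The MYB-annotated c61418_g2 had 216.11 and 209.86 in cold, 9.20 and 6.03 in drought and 1.21 and 2.52 in untreated seedlings (-4.66). An ATPase 3 unigene (c55007_g5) had 193.27 and 224.01 in cold, 7.45 and 11.15 in drought and 3.29 and 2.88 in untreated seedlings (-4.37).

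Some unigenes were found under a single stress. At FPKM of at least 1 in both libraries of a stress and a listed 0 in both of the other, 914 were found in drought only and 2130 in cold only. Of those in drought only, 452 were also listed at 0 in both controls, and of those in cold only 1561. Their levels were low, with a median FPKM of 1.68 and 1.58. Only 290 and 615 of them were tested, of which 55 and 63 were DEGs, beside 1.77% and 1.68% of all tested unigenes. They pass the filter only through the stress in which they are high, so nothing is read from these counts. Raising the threshold to FPKM 2 left 140 and 265. In cold-1 55928 unigenes reached FPKM 1, against 42849 to 48945 in the other 5 libraries, and the part of this library in the larger number on the cold side was not tested. The 156 unigenes whose first database hit is a green alga, of which 2 were at 0 in every library, summed to FPKM 97.1 in cold-1 and 43.19 in cold-2, against 41.85 and 20.84 in the drought libraries and 25.27 and 14.01 in the controls. Their part was not tested either. The highest in drought was c58197_g1, with 83.39 and 51.01 in the drought libraries, 0 in both cold libraries and 4.55 and 7.75 in the controls. The pair c62592_g1 and c62592_g2 followed with 44.28 and 63.23, and 51.74 and 49.45, under drought and 0 in both cold libraries. In cold they included c45731_g1, with 45.22 and 159.83 in the cold libraries and 0 in both drought libraries.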

How the data were processed

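The authors merged the clean reads of all 6 samples, assembled them with Trinity, mapped each sample's pairs to the assembly with Bowtie 1.1.1 and estimated reads with RSEM. They deposited FPKM values with 2 decimals and no read counts, so depth is known only through FPKM and no count model was used. Sums of FPKM per library were 967046 to 993409. Replicates correlated over the tested unigenes with Pearson's r of 0.967 (control), 0.939 (cold) and 0.949 (drought).

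The FPKM values were taken as log2(FPKM + 1), and limma 3.58.1 under R 4.3.3 fitted the 6 libraries together, with a mean-variance trend and 3 residual and 2.76 prior degrees of freedom. Unigenes whose FPKM averaged less than 1 in the 4 stressed libraries were left out, and p was adjusted after Benjamini and Hochberg over 40144 unigenes. The count model that the study's methods name could not be used on FPKM. In a test on simulated data for drought against cold with 40144 unigenes, 200 were changed by 3 log2 units, 185 passed the fold threshold, and 111 were called. Of the calls 0 had the wrong sign and 0 fell on unchanged unigenes. The changed unigenes were drawn from those above a minimum level, the noise was independent and normal, and all other unigenes were left unchanged. The real data differ in this, with some DEGs at 0 in a whole group. The simulation therefore gives no rate of false calls for the DEGs.

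Lists were made from names in the part of the supplementary maize hit table used here (1999 unigenes, of which 974 have an identity of at least 75%) or from the unigenes that the paper names, except the clock list, which was drawn from its supplementary list of unigenes that differed between cold and control. Unigenes named in the text were those of the paper, the DEGs with the largest change in each direction (among all unigenes, among those with a group at 0, and among maize hits), the called members of each list and its most abundant uncalled member. A few further list members were named after their values were seen. The members and lists were chosen with earlier results of these data known. The alternatives were a pseudocount of 0.1, other filters, median-of-ratios and quantile scaling, a fit of 4 libraries, a replicate block, no trend, other thresholds and leaving out each library. Columns with the authors' own fold changes were not used.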

Additional observations from a re-analysis of the deposited data

Results flagged for a closer look

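The stresses moved 15 of the 40144 tested unigenes in opposite directions from the control, with calls in both comparisons. Such unigenes stand out because their effects under 2 treatments with a shared control have opposite signs. Only DEGs between drought and cold were counted, and opposite calls meet the fold threshold of a DEG by construction. The log2 fold changes of the 15 between drought and cold lay between -6.27 and 7.58. Lower in cold and higher in drought than the control were 14 unigenes, and higher in cold and lower in drought was 1. The first kind included HSP82 (c56395_g2), HSP70-1 (c59237_g1), HSP101 (c58173_g1), the small HSP c56552_g1 and the unnamed c63288_g6, which had an FPKM of 269.98 and 313.86 under drought, 0.67 and 0.39 under cold and 51.11 and 61.74 in control seedlings. It also included c48423_g1 and c48423_g2 of a single assembly component, with 621.40 and 687.34 and with 227.91 and 255.12 in the drought against 16.89 and 21.92 and 5.95 and 6.88 in the cold. The second kind was c62460_g1, annotated as a DnaJ-domain protein, a type of co-chaperone of HSP70, with 1.62 and 1.95 under drought and 181.21 and 249.88 under cold. Some of the first kind lay close to the fold threshold against the control. On the log2 scale HSP101 passed it narrowly in both stresses, with 2.023 for drought minus control. For cold minus control HSP70-1 had -2.044 and c48423_g1 had -2.118. The small HSP c56552_g1 lay further from it, with -4.272 for cold and 2.443 for drought. Under median-of-ratios scaling 9 of the first kind and 0 of the second were counted. Which of the named unigenes are among the 9 is not given here.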

How the results depend on the processing

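Of 144 unigenes that were named and tested, 78 were DEGs, and 0 of them changed sign in any setting. Without a filter 46 of 176534 unigenes passed, 43 higher in drought and 3 higher in cold. DEGs in drought against cold numbered 845 in a fit of the 4 stressed libraries (471 and 374), and a replicate block gave 872 DEGs, with 364 DEGs higher in cold. The replicate numbers do not pair the samples (correlations of deviations 0.037, -0.030 and -0.003). Leaving out each library in turn gave from 0 to 846 DEGs, 0 to 488 DEGs higher in drought and 0 to 416 higher in cold. A fold threshold of 1 on the log2 scale gave 3416 (2055 and 1361), an adjusted p under 0.05 gave 1048 higher in cold, and that p at any fold, added after seeing the data, gave 15421 (9258 and 6163). The median log2 fold change of all unigenes tested was -0.020 without a filter, 0.19 with a mean over 6 libraries, 0.093 with FPKM of at least 1 in 2 of 4 libraries, -0.053 under median of ratios and 0.041 under quantile normalization. Unigenes of a single stress numbered 2558 and 6393 at FPKM 0.5 and 140 and 265 at FPKM 2 for drought and cold, and the control lay on the drought side in 257 DEGs higher in drought under median of ratios. Of the named unigenes without a call, 10 changed sign. Under median of ratios these were c52663_g5 (-0.063), c13919_g1 (-0.056), c48928_g1 (-0.082), c61398_g2 (-0.15), c56800_g2 (-0.16), c54045_g1 (-0.15) and c33506_g1 (-0.21). Under quantile normalization they were c13919_g1 (-0.058), c48928_g1 (-0.086), c54045_g1 (-0.078) and c33506_g1 (-0.15). With each library left out in turn, differences spanned both signs in c59299_g1 (from -0.19 to 0.76), c48928_g1 (-0.31 to 0.58), c56800_g2 (-0.013 to 0.18), c54045_g1 (-0.61 to 0.67), c33506_g1 (-0.27 to 0.32), c153917_g1 (-0.89 to 0.19) and c49699_g1 (-0.97 to 0.011). The cause was not tested. FPKM values without counts set no limit for a listed 0.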
